A study of Mus musculus with 6 samples.

Results

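The interleukin 6 family was followed through 10 genes: the ligand genes Il6, Lif, Osm and Il11, the receptor genes Il6ra, Il6st, Osmr and Lifr, the transcription factor gene Stat3 and the inhibitor gene Socs3. They were chosen by name, with earlier results of these data known, and all 10 were found among the 16446 gene symbols of the array, with 1 probe each. RNA came from hepatic stellate cells, liver pericytes that hold vitamin A and lay down scar matrix after injury. Cirrhosis had been induced with carbon tetrachloride (CCl4), a hepatotoxin, in every mouse, and 3 arrays came from wild-type mice and 3 from SEPT4-KO mice, which lack the septin Sept4. The dose and duration of CCl4, the age, sex and strain of the mice and how the knockout was made are not stated in the labels. Nor do they say whether the arrays of a genotype came from separate mice, so a p-value here reflects spread among these arrays that may be only technical.

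Cytokines of this family all signal through a shared receptor chain, gp130, which Il6st encodes. A ligand brings gp130 together with a partner chain (Il6ra for interleukin 6, Lifr for leukaemia inhibitory factor, Osmr or Lifr for oncostatin M). The assembled complex activates Janus kinases, which phosphorylate the transcription factor STAT3. STAT3 switches on acute-phase genes and also Socs3, whose protein binds gp130 and shuts the signal off. In the liver the pathway is known for the acute-phase response of hepatocytes and for regeneration, and stellate cells are known both to make interleukin 6 and to respond to it.

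The comparison of the genotypes asks what the loss of Sept4 does to expression in these cells. Among the 10 genes, most ligand genes and most receptor genes moved in opposite directions. In the knockout, 3 of the 4 ligand genes fell (Il6 by 1.30, Lif by 0.78 and Osm by 0.68 on the log2 scale), and 3 of the 4 receptor genes rose (Il6ra by 1.26, Il6st by 0.76 and Osmr by 0.57). Socs3 rose by 0.40. Il11, Lifr and Stat3 did not pass the threshold, an adjusted p of 0.05 in limma after Benjamini-Hochberg adjustment over all 23473 probes. Thus 7 of 10 genes were called, 4 higher and 3 lower, where 42.7% of all probes were called, 26.7% higher and 16.0% lower. The median signal of the 10 genes was 6.19, and 64.4% of probes with a signal of 6 to 8 were called. The values of the genotypes did not overlap for 8 of the 10 genes, against 56.2% of all probes. With so many probes called, and the genes chosen with earlier results known, a call by itself sets a gene little apart. A difference that was called and at least 2-fold was seen for Il6 and Il6ra, against 7.02% of all probes.

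Promoter sequence is shown for the 4 genes in which a motif was found, because AP-1 and NF-kappa-B are textbook activators of cytokine genes and a STAT site is the textbook response element of Socs3. RefSeq start sites on GRCm38.p6 were available for 9 of the 10 genes, and Osm had no entry. The 250 bases before each start were searched on both strands for TTCNNNGAA (STAT), TGANTCA (AP-1), TGACGTCA (CRE) and the 10-base NF-kappa-B consensus. No matches overlapped. Letters in capitals are motif matches, and each sequence runs 5′ to 3′ toward the gene. Il6 lies on the plus strand (chr5:30012864-30013113), Lif on the plus strand (chr11:4257318-4257567), Il11 on the minus strand (chr7:4778142-4778391, the first of its 2 listed starts by coordinate) and Socs3 on the minus strand (chr11:117969367-117969616).
Il6: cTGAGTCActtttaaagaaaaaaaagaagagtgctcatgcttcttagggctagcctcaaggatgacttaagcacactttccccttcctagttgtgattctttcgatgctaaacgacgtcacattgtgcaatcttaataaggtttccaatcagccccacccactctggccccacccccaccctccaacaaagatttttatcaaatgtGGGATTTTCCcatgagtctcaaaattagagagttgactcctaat
Lif: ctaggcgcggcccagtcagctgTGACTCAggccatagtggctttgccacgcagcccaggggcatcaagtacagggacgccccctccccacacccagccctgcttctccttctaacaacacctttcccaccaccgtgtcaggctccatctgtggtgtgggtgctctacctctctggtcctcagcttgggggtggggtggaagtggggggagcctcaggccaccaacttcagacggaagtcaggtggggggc
Il11: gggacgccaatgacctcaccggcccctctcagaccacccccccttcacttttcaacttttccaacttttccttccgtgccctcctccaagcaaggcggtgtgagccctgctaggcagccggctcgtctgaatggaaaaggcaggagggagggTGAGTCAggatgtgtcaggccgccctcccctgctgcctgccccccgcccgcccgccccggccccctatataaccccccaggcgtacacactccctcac
Socs3: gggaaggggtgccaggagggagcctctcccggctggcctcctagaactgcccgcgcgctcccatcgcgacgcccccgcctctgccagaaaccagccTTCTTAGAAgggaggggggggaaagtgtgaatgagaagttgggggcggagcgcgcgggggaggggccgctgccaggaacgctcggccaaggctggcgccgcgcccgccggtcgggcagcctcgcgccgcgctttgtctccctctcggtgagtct

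The AP-1 letters stood 243 to 249 bases before the start of Il6, 222 to 228 before that of Lif and 92 to 98 before that of Il11. So 3 of the 9 genes held them, all ligand genes. Among them was Il11, whose signal was not called and which held them at 1 of its 2 listed starts. Of all 32851 promoter windows, 6.75% held them, a share of windows and not of genes. The NF-kappa-B consensus occurred in Il6 alone among the 9 genes, 35 to 44 bases before the start, and in 3.90% of all windows. The STAT letters occurred in Socs3 alone among the 9 genes, 146 to 154 bases before the start, and in 7.02% of all windows. No match to the full CRE letters TGACGTCA was found in these windows, and 1.55% of all windows held one. Near matches, such as cgacgtca in the Il6 window, were not counted. These are matches of letters and not measured binding.

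**Figure D1:**
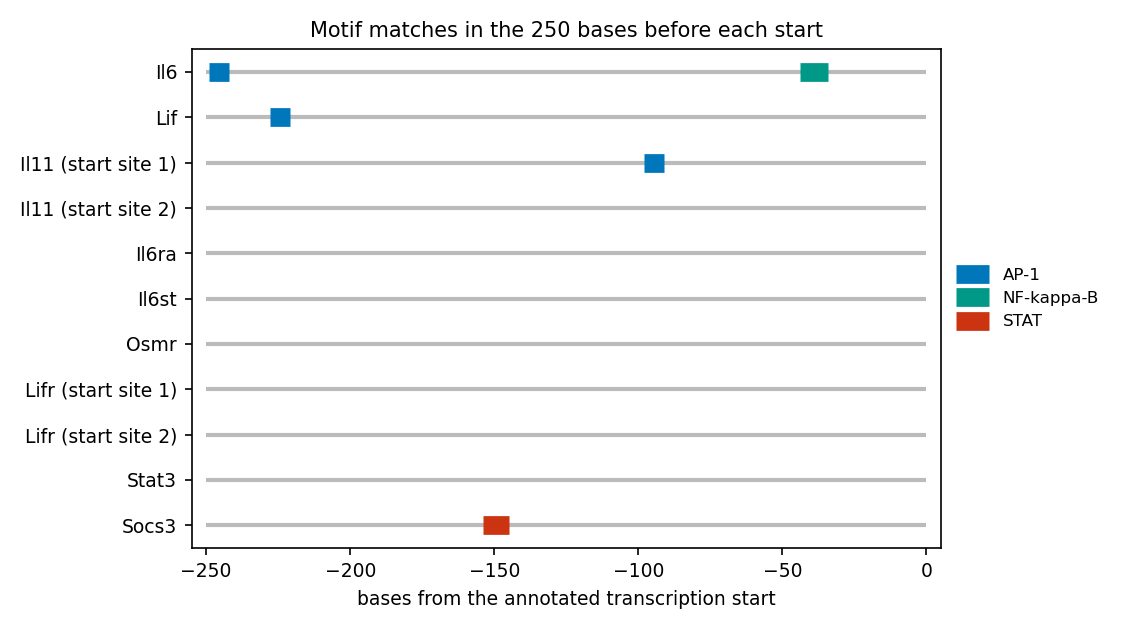
Positions of motif matches in the 250 bases before each annotated start (x axis, bases from the start) for the 9 genes with a RefSeq entry, Il11 and Lifr having 2 listed starts each. AP-1 matches lie in Il6, Lif and 1 start of Il11, the NF-kappa-B match in Il6 and the STAT match in Socs3.

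Il6 encodes the cytokine that gives the family its name. Its log2 signal was 6.44, 6.41 and 6.57 on the wild-type arrays and 5.21, 5.02 and 5.30 on the knockout arrays. All knockout values lay below all wild-type values, with a gap of 1.10 between the groups. The means were 6.47 ± 0.09 and 5.18 ± 0.15 (SD, n = 3), a difference of -1.30 ± 0.10 (SE) with a 95% confidence interval of -1.54 to -1.05 and an adjusted p in limma of 0.000775. That is a 2.45-fold fall. By size of difference it stood at the 93.9th percentile of all probes. By exact permutation, two-sided, p was 0.1, which is the smallest that 3 arrays against 3 can give and was also the value for each of the other genes without overlap.

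Lif encodes leukaemia inhibitory factor, a ligand of the Lifr and gp130 pair. It read 6.58, 6.75 and 6.69 in wild-type cells and 5.91, 5.87 and 5.90 in knockout cells. The knockout arrays were close together, with an SD of 0.02, and again lay wholly below the others. Their mean was lower by a log2 difference of -0.78 ± 0.06 (SE), and limma gave an adjusted p of 0.000907.

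Osm encodes oncostatin M, a ligand made largely by myeloid cells. Its signal was 5.65, 5.76 and 5.58 in wild-type and 5.16, 4.99 and 4.81 in knockout cells, without overlap. The means differed by -0.68 ± 0.11 (SE), for which limma gave an adjusted p of 0.00624. Its knockout values were near the array median of 5.02, and at a signal of 4 to 6 the share of probes called was 44.2%.

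Because Osm and Il6ra are expressed by macrophages, markers of that lineage are given beside them. Of 13 measured macrophage and Kupffer cell markers, 4 fell and 2 rose, a called share of 46.2%, close to the 42.7% of all probes. It was below the 64.4% of probes with a signal of 6 to 8, where the list's median signal of 6.59 lies. The complement genes C1qc, C1qa and C1qb fell by 1.32, 0.98 and 0.63, and the macrophage surface gene Adgre1 (annotated as Emr1) by 1.27. The Kupffer cell genes Clec4f and Cd5l rose by 0.52 and 0.49. The summed level of the 13 genes was 12.3 to 12.4 in wild-type and 12.4 to 12.5 in knockout arrays on the log2 scale, and 11.6 to 11.7 and 11.4 to 11.5 without the brightest of them, Cd5l. None of the 13 was at the floor of all 3 arrays in either genotype. The part of these cells in the ligand and receptor differences was not tested, and in such bulk RNA fewer cells of a type and less RNA per cell cannot be told apart.

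Il11 encodes interleukin 11, a ligand known for driving fibroblasts toward a fibrogenic state. It read 4.88, 4.57 and 4.57 in wild-type and 4.57, 4.69 and 4.78 in knockout cells, so the groups overlapped. Between the means lay 0.00 ± 0.11 (SE), and the adjusted p from limma was 0.981. Its 95% confidence interval of -0.28 to 0.29 leaves out changes of the size seen for Il6, Lif or Osm.

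**Figure D2:**
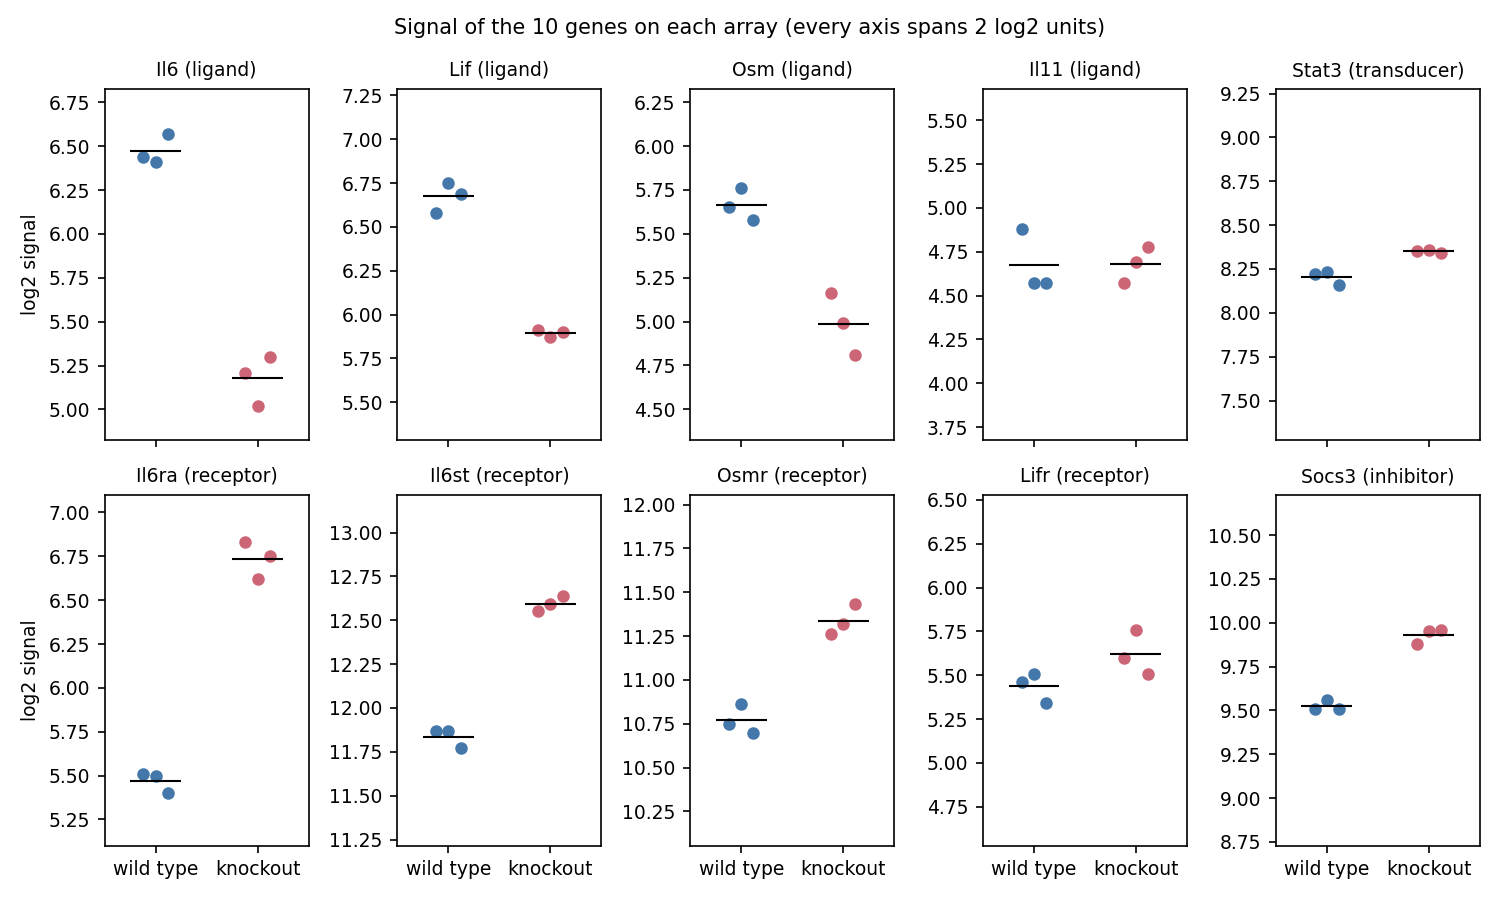
Log2 signal (y axis) of each gene on the 3 wild-type (blue) and 3 knockout (red) arrays, with the group mean as a line and the same span on every axis. Il6, Lif and Osm are lower and Il6ra, Il6st, Osmr and Socs3 higher on all 3 knockout arrays, the Stat3 groups are 0.11 apart, and the groups of Il11 overlap.

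Among the receptors, Il6ra changed most. It encodes the chain that binds interleukin 6 and can also be shed as a soluble receptor. Its signal was 5.51, 5.50 and 5.40 in wild-type cells and 6.83, 6.62 and 6.75 in knockout cells, a gap of 1.11 with all knockout values above. The difference was 1.26 ± 0.07 (SE), or 2.40-fold, with a 95% confidence interval of 1.08 to 1.45 and an adjusted p in limma of 0.000538. The differences of Il6 and of Il6ra, a ligand and its own receptor chain, were thus of like size on the log2 scale and opposite in sign.

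Il6st, the gene of gp130, gave 11.87, 11.87 and 11.77 in wild-type and 12.55, 12.59 and 12.64 in knockout cells. All knockout values were higher, by 0.76 ± 0.06 (SE) in the mean, and limma gave an adjusted p of 0.000769. Osmr, the oncostatin M receptor chain, gave 10.75, 10.86 and 10.70 in wild-type and 11.26, 11.32 and 11.43 in knockout cells. It also rose without overlap, by 0.57 ± 0.07 (SE), and the adjusted p from limma was 0.00311.

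Both probes are bright, and bright probes leaned upward in the knockout as a whole. The median difference was 0.22 among the 1628 probes with a signal of 10 to 12 and 0.27 among the 685 above 12, against 0.12 over all probes, and 70.8% and 73.9% of these probes were called. The lean was not confined to bright probes. The median difference was 0.33 among the 4161 dimmest, with a signal of up to 2, and 0.01 at a signal of 4 to 6. Rescaling that evens out the tilt of bright probes lowered the rises without ending a call. The labels call the deposited values quantile normalised, but their distributions were not equal, with upper quartiles of 7.70 to 7.84. After quantile normalisation was applied here, Il6st rose by 0.54 and Osmr by 0.41, and after cyclic loess by 0.52 and 0.37. The dimmer Il6ra rose by 1.23 and 1.22 under the same scalings.

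Lifr, the chain shared by leukaemia inhibitory factor and oncostatin M, read 5.46, 5.51 and 5.34 in wild-type and 5.60, 5.76 and 5.51 in knockout cells. The highest wild-type and the lowest knockout value were equal to 2 decimals. The difference was 0.18 ± 0.09 (SE), with a 95% confidence interval of -0.04 to 0.41 and an adjusted p in limma of 0.156.

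Stat3 read 8.22, 8.23 and 8.16 in wild-type and 8.35, 8.36 and 8.34 in knockout cells. The groups did not overlap, but the difference of 0.14 ± 0.04 (SE) was close to the all-probe median of 0.12, and its adjusted p was 0.0524 in limma. It was 0.05 after quantile normalisation and 0.02 after cyclic loess. Over 16 alternatives its adjusted p ran from 0.0104 to 0.682. The array measures the message only, and STAT3 is switched on by phosphorylation.

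Socs3, the feedback inhibitor that STAT3 induces, read 9.51, 9.56 and 9.51 in wild-type and 9.88, 9.95 and 9.96 in knockout cells. All knockout values were higher, by 0.40 ± 0.05 (SE) in the mean, for which limma gave an adjusted p of 0.00270. At a signal of 8 to 10, 69.3% of probes were called, with a median difference of 0.15. The rise was 0.24 after quantile normalisation and after cyclic loess, and remained called in both.

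**Figure D3:**
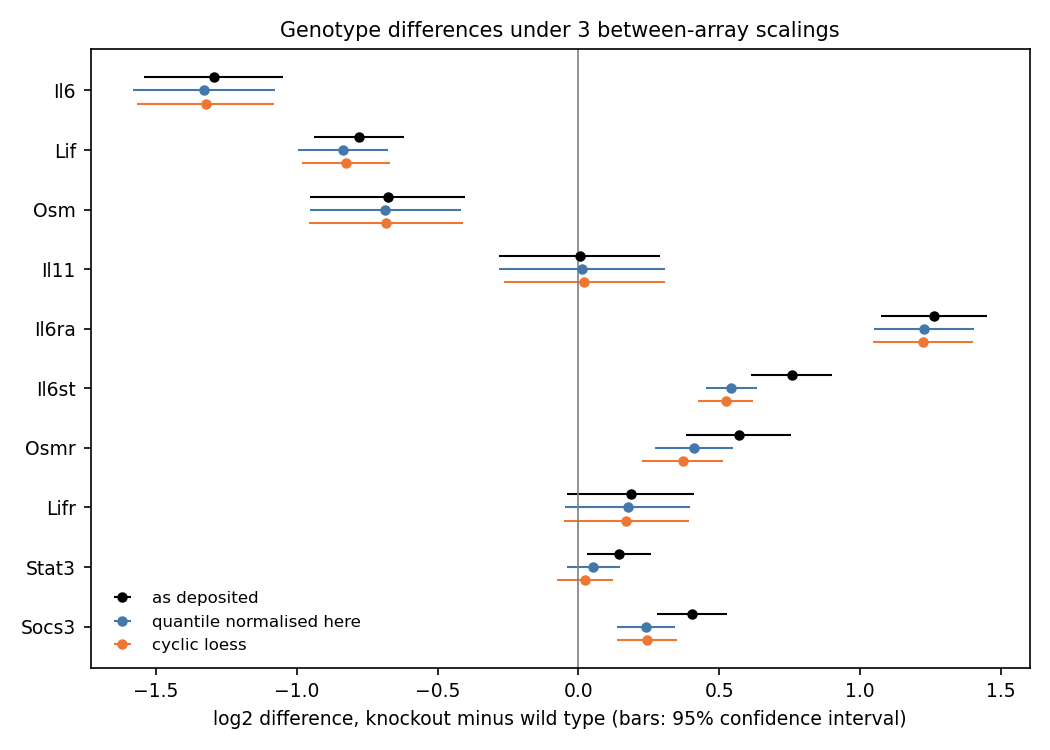
Log2 difference of knockout minus wild type (x axis) with its 95% confidence interval for the 10 genes, as deposited (black), after quantile normalisation of the deposited values (blue) and after cyclic loess (orange). With cyclic loess Il6, Lif and Osm still fall by 1.32, 0.83 and 0.68, whereas the rises of the bright genes Il6st, Osmr and Socs3 shrink to 0.52, 0.37 and 0.24.

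Other cytokines and receptors of the family and its relatives were mostly dim. Of 13 measured, 1 rose and 1 fell (15.4% called), with a median difference of 0.05 against 0.12 over all probes. Their median signal was 3.50, and 19.1% of all probes with a signal of 2 to 4 were called, so the count is near what that signal gives. The median difference of probes at that signal was -0.01. Ctf1, the gene of cardiotrophin 1, another gp130 ligand, rose from 4.59 ± 0.07 to 5.22 ± 0.16 (SD, n = 3), with an adjusted p of 0.00585 in limma. Its direction was opposite to that of Il6, Lif and Osm. Ebi3, a subunit of interleukin 27, had a difference of -0.42 (adjusted p 0.0492 in limma). That call ended after quantile normalisation, at 0.0510, and after cyclic loess, at 0.0547. It was also lost without any 1 of 5 arrays, knockout replicate 2 being the exception, with adjusted p-values of up to 0.125.

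Among 23 measured genes of the kinases, adaptors and other transducers below gp130, 9 rose and 4 fell, and the median difference was 0.11. That is 56.5% called, against 42.7% of all probes and 64.4% of probes with a signal of 6 to 8, where the list's median signal of 6.96 lies. The largest rise was that of Mapk3, the kinase ERK1, from 7.39 ± 0.04 to 8.22 ± 0.10 (SD, n = 3). Its activating kinase gene Map2k1 rose by 0.53, the phosphatase gene Ptpn11, whose product SHP2 couples gp130 to that cascade, by 0.49, and the transcription factor genes Stat2 and Stat5b by 0.59 and 0.53. Map2k1 rose by only 0.35 after quantile normalisation and 0.33 after cyclic loess. Adam10, a protease that can shed the interleukin 6 receptor, fell by 0.48. Of the Janus kinase genes, Jak1 was higher by 0.36 and Jak2 lower by 0.44 (adjusted p of 0.00678 and 0.00165 in limma). Jak3 and Tyk2 were not called, at 0.20 and 0.11 (adjusted p of 0.245 and 0.196 in limma). All of these Janus kinase genes are named after their values were seen.

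Of 17 measured inhibitors of the pathway other than Socs3, 5 rose and 5 fell. The share called was 58.8%, against 42.7% of all probes and 64.4% at a signal of 6 to 8, which holds the list's median of 6.92. Socs2 rose from 9.70 ± 0.01 to 10.35 ± 0.06 (SD, n = 3) and Socs4 by 0.43. Ptpn2, a phosphatase that removes phosphate from Janus kinases and STATs, fell from 8.48 ± 0.04 to 7.75 ± 0.06 (SD, n = 3), Cish, a STAT5-induced relative of Socs3, by 1.08, and Pias1 by 0.37. Socs7 fell by 2.07, but 2 knockout arrays had it at their floor, the fall was 1.20 with a linear offset, and without wild-type replicate 3 its adjusted p was 0.0503. Socs6 had 2 probes that disagreed, the brighter at -0.09 with an adjusted p of 0.304 and the dimmer at -1.31 with 0.00442. The split of this list turned with scaling, to 2 higher and 6 lower after quantile normalisation and to 2 and 7 after cyclic loess, and its median went from 0.10 to -0.02 and -0.06.

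**Figure D4:**
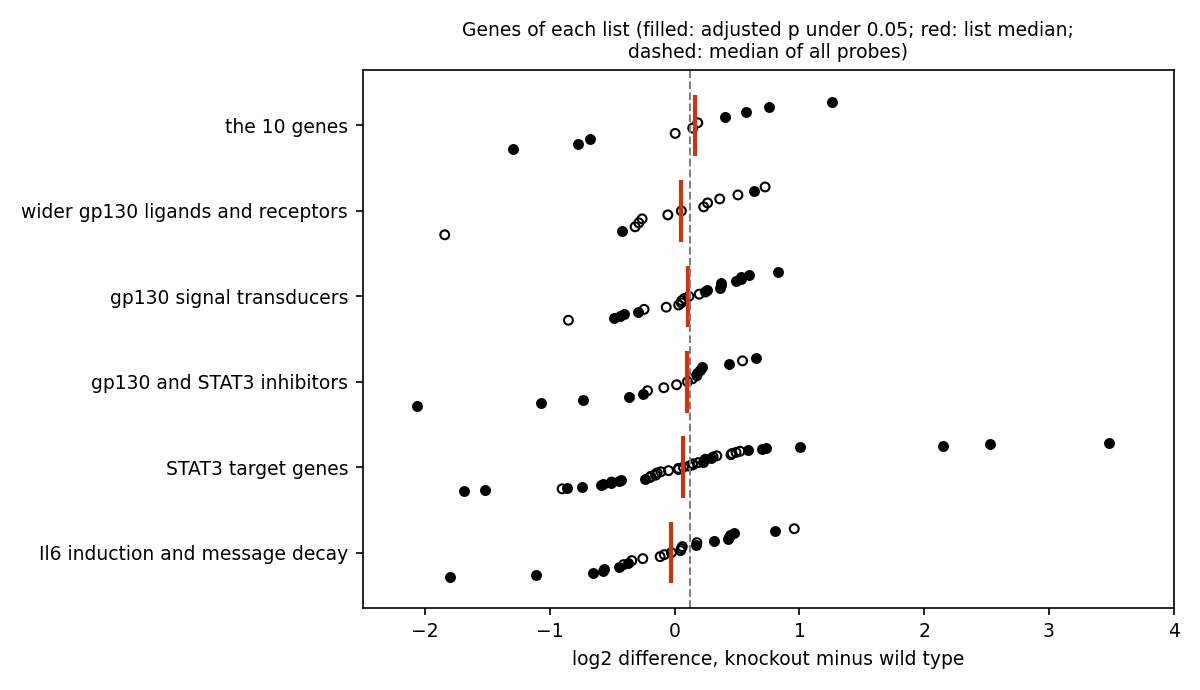
Log2 difference of knockout minus wild type (x axis) of every measured gene of each list, filled where the adjusted p is under 0.05, with the list median in red and the median of all probes dashed at 0.12. The list medians lie between -0.03 and 0.16, with members on both sides.

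Known targets of STAT3 did not move in 1 direction. Of 43 measured, 10 rose and 10 fell, or 46.5% against 42.7% of all probes, with a median difference of 0.07. The largest rise was that of Saa3, an acute-phase serum amyloid A gene, from 3.81 ± 0.21 to 7.29 ± 0.15 (SD, n = 3). Serpina3g, which encodes an intracellular protease inhibitor, rose by 2.53, and the hepcidin gene Hamp (annotated as Hamp1), which controls iron export, by 2.15. Birc5, the gene of survivin, rose by 1.01.

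Other acute-phase genes of the list had differences of both signs. Fga, a fibrinogen chain, and Lcn2, lipocalin 2, fell by 0.57 and 0.44. The fibrinogen-related gene Fgl1, the fibrinogen chain gene Fgg and Serpina3n had positive differences of 0.52, 0.49 and 0.31, with adjusted p-values in limma of 0.0778, 0.0636 and 0.151. The values of Hp (haptoglobin), Fgb and Saa2 were -0.11, 0.03 and 0.25, and limma gave adjusted p-values of 0.397, 0.745 and 0.142. These 8 genes are named after their values were seen. Hepatocytes make most acute-phase proteins, and of 10 measured hepatocyte markers 2 rose, among them albumin (Alb, annotated as Alb1) by 0.88, and 2 fell, Apoh by 0.63 and Ttr by 0.42. That share of 40.0% called did not exceed the 42.7% of all probes. It was above the 19.1% of probes with a signal of 2 to 4, where the list's median signal of 3.90 lies. The summed hepatocyte level was 9.16 to 9.20 in wild-type and 9.14 to 9.21 in knockout arrays, and without the brightest, Ttr, 8.19 to 8.28 and 8.52 to 8.55. None of these 10 was at the floor of all 3 arrays in either genotype. The part of hepatocyte RNA in these values was not tested.

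Falls among the STAT3 targets were led by Myc and Timp1. Myc, a growth-promoting transcription factor, fell from 9.13 ± 0.07 to 7.44 ± 0.06 (SD, n = 3), and Timp1, an inhibitor of matrix metalloproteases, from 12.18 ± 0.05 to 10.65 ± 0.05 (SD, n = 3). The survival kinase gene Pim3 fell by 0.74 and Vegfa by 0.86 (adjusted p of 0.00126 and 0.0194), both named after their values were seen. With scaling the split moved to 8 higher and 13 lower after quantile normalisation, and to 7 and 14 after cyclic loess.

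**Figure D5:**
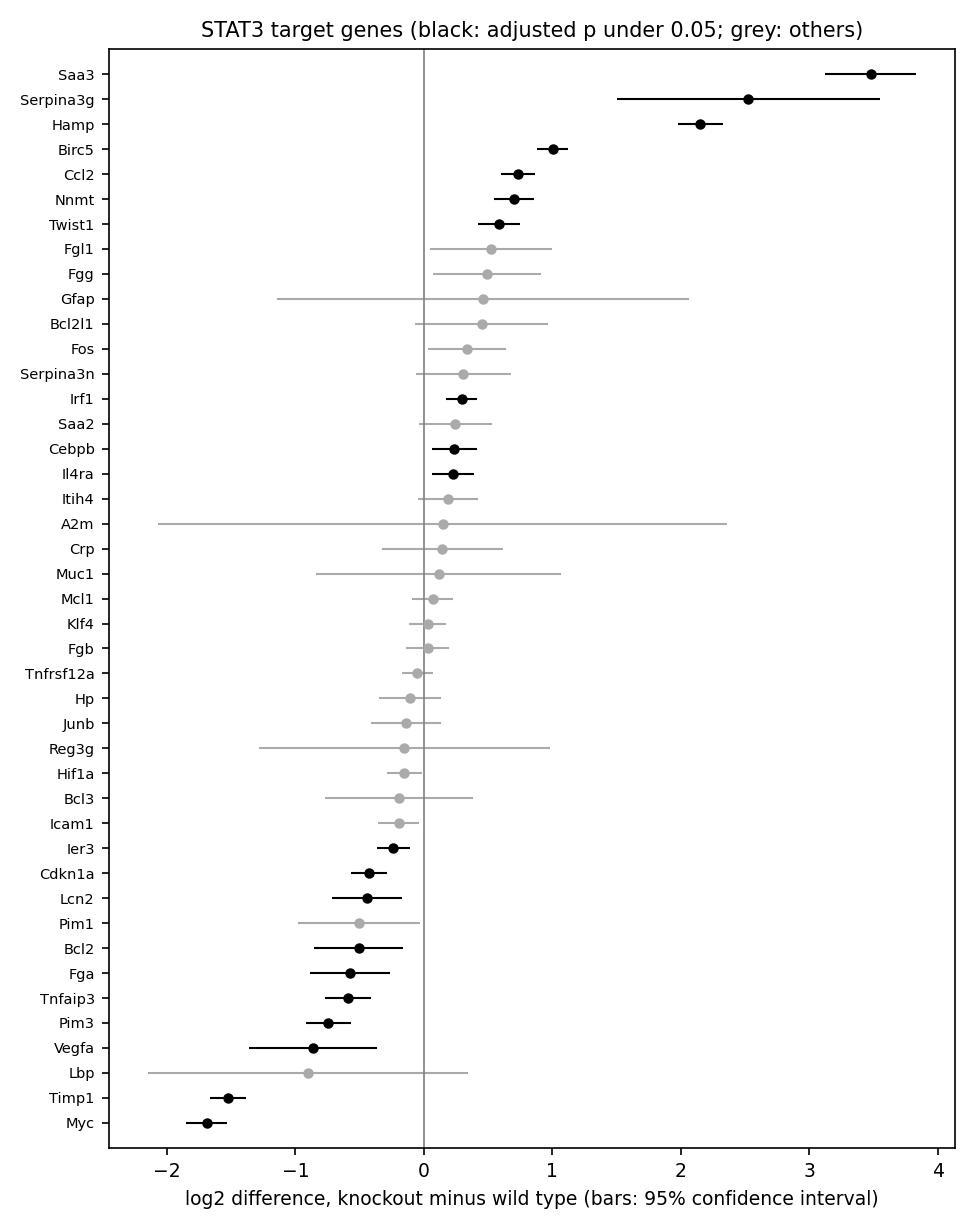
Log2 difference of knockout minus wild type (x axis) with its 95% confidence interval for the 43 measured STAT3 target genes, black where the adjusted p is under 0.05. Saa3, Serpina3g and Hamp stand highest and Timp1 and Myc lowest, and the 20 called genes divide equally between the directions.

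Genes that switch Il6 on or set the life of its message had as many rises as falls in the deposited values. Of 25 measured, 7 rose and 7 fell, and the median difference was -0.03. At 56.0% the share called lay between that of all probes, 42.7%, and the 64.4% of probes at a signal of 6 to 8, around the list's median of 6.89. Il1b, an inducer of Il6, had a difference of -0.65 (adjusted p 0.0252 in limma), and its receptor gene Il1r1 one of 0.96 (0.0526). The tumour necrosis factor receptor gene Tnfrsf1a rose by 0.81, while the value for Tnf itself was -0.03 with an adjusted p of 0.913. Nfkbiz, a nuclear cofactor of NF-kappa-B needed for Il6 induction, fell from 10.06 ± 0.01 to 9.48 ± 0.07 (SD, n = 3), and the coactivator gene Crebbp fell by 0.57. Il1r1 and Tnf are named after their values were seen.

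Regulators of message stability were among the called genes. Arid5a, whose protein stabilises the Il6 message, had a difference of -1.80 (adjusted p 0.0485 in limma), and Khsrp, a decay factor, one of -1.11 (0.0216). Both were dim and imprecise. The Arid5a call was lost without any 1 of 5 arrays, knockout replicate 1 being the exception, with an adjusted p of up to 0.126, and after quantile normalisation it stood at 0.0579. The Khsrp call was lost without any 1 wild-type array or knockout replicate 2, at up to 0.0709. Il1b was lost without any 1 wild-type array or knockout replicate 1, at up to 0.0789. Zc3h12a, the RNase regnase 1 that degrades the Il6 message, rose by 0.32 with an adjusted p of 0.00425. Of the list's other message regulators, Elavl1 rose by 0.44, Rc3h1 rose by 0.48 and Zfp36l1 fell by 0.38. Their adjusted p-values in limma were 0.00153, 0.0118 and 0.00298. Zfp36 was not called, at -0.34 (adjusted p 0.673 in limma). Zc3h12a and these other regulators are named after their values were seen.

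The 3 genes nearest to Il6 over the 6 arrays, by the root mean square of the difference between their deviations from the wild-type mean, were C1qc at 0.0636, the secreted matrix protein gene Cthrc1 at 0.0638 and the endothelial transcription factor gene Sox18 at 0.0656. Those nearest to Il6ra were Mmp2 (gelatinase A) at 0.0545, and E430002G05Rik and Cnp1, both at 0.0604. These distances rest on 6 arrays in 2 groups, so they mainly mark genes with a like difference between the genotypes.

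The arrays as a whole had equal medians of 5.02, with 940 to 1255 probes at the lowest value of each array, and none of the 10 genes lay there. Precision is limited by having 3 arrays per genotype. Of 13 stellate cell markers measured, 1 (Ngfr) had a mean below the array median, and desmin (Des), Pdgfrb and the collagen genes lay above it in both genotypes. Lrat was at 5.05 ± 0.30 in wild-type and 7.46 ± 0.04 in knockout cells (SD, n = 3), close to the median in wild type and above it in the knockout. The markers themselves differed between the genotypes, with 8 of 13 higher, among them Col3a1 by 2.09 and Cygb by 2.05. Another 3 were lower, among them Col1a2 by 1.20. The share called was 84.6%, against 42.7% of all probes and 69.3% of probes with a signal of 8 to 10. The list's median signal was 9.49. Its median difference of 0.45 went to 0.15 after quantile normalisation and to 0.26 after cyclic loess. Of 10 measured portal fibroblast and mesothelial markers, 2 rose (Entpd2 by 0.59 and Cd34 by 0.42) and 1 fell (Thy1 by 2.24). That is 30% called, against 42.7% of all probes. The part of these differences in the values of the 10 genes was not tested. Of other lineages, 6 of 9 endothelial, 7 of 9 neutrophil, 11 of 11 lymphocyte, 6 of 10 hepatocyte, 4 of 5 cholangiocyte, 7 of 10 portal fibroblast and mesothelial and 4 of 13 macrophage markers lay below the median. No probe named Sept4 was analysed here, so the deleted gene did not check the labels. The highest values of the arrays separated the genotypes, at 15.7 to 15.8 in wild-type and 16.6 to 16.8 in knockout arrays. So did the lowest values, at 0 to 0.216 in wild-type and 0.305 to 0.323 in knockout arrays. The labels record no batch, and a batch that coincided with genotype cannot be told apart from it.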

How the data were processed

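Gene expression was measured on single-colour arrays labelled with Cy5. Per the labels, the authors quantile normalised the values, and log2 signals of 23473 probes on 6 arrays were deposited. The arrays had equal medians but upper quartiles of 7.70 to 7.84. Base 2 was read from the range of the values, since no label gives it. How background was corrected is not stated in the labels. A microRNA labelling kit and tumour tissue appear in the protocol, unlike the stated design. Probes were named from the platform annotation (16631 with 1 symbol, 6842 with none), and older symbols were linked through RefSeq synonyms on GRCm38.p6.

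Knockout minus wild-type differences came from limma 3.58.1 (lmFit, then eBayes, in R 4.3.3) on the deposited values, and p-values were two-sided and adjusted by Benjamini-Hochberg over all probes. The threshold was 0.05. The fit had 4 residual degrees of freedom and 1.11 from the prior, and was tested on simulated data. A gene with several probes was represented by its brightest. The 5 pathway lists, 8 marker lists and the 10 genes were chosen with earlier results of these data known, so their counts, and values such as those of Myc, Timp1 and Saa3, are not independent support. From each pathway list, up to 6 called genes with the largest differences were named, or otherwise the 3 with the smallest p, and for the 2 most altered members the 3 nearest probes with a symbol. In the labels, same-numbered arrays shared only a number, and whether they were processed together is not stated. Alternatives covered scaling, filters on dim probes, a linear offset (10th percentile), the variance prior, array weights, a replicate block, each array left out, an ordinary test and probe averaging. Of the lists, 19 names had no probe of their own and were not analysed here. Figures were drawn with matplotlib 3.10.9.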

Additional observations from a re-analysis of the deposited data

How the results depend on the processing

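The called directions of Il6, Lif, Osm, Il6ra, Il6st, Osmr and Socs3 and their calls held under all 16 alternatives run for each. Il6 ranged from -1.36 to -1.21, Lif from -0.84 to -0.74, Osm from -0.76 to -0.59, Il6ra from 1.21 to 1.32, Il6st from 0.52 to 0.78, Osmr from 0.37 to 0.61 and Socs3 from 0.24 to 0.43. The number of the 10 genes called was 7 to 8 over 16 alternatives, and 8 only where the adjusted p of Stat3 passed. That happened without the dimmest 25% of probes (0.0267), without probes at the lowest value of an array (0.0352), with a trended and robust prior (0.0119) and with array weights (0.0476). Stat3 also passed in the ordinary test (0.0104). Il11 turned sign when single arrays were left out, with values from -0.05 to 0.11, and was never called.

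With the replicate number as a block, 13 STAT3 targets were called (8 higher and 5 lower) in place of 20, and 7 of the 10 genes as before. Correlations of the deviations of same-numbered arrays were 0.00775, -0.00135 and -0.00196, and not every array correlated best with its own number. With single arrays left out, 28 to 35 of the 78 wider pathway genes were called in place of 39, 14 to 18 STAT3 targets, and 7954 to 9082 of all probes in place of 10025. Quantile normalisation and cyclic loess lowered the share of all calls that were higher from 62.6% to 52.5% and 51.5%. In the wider pathway the calls went from 22 higher and 17 lower to 18 and 17, and to 17 and 20. The size of the fall of Socs7 is limited by its signal at the lowest value on 2 knockout arrays.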
